A study of Mus musculus with 6 samples.

Results

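Long late replication domains are stretches of chromosome whose DNA is copied near the end of S phase over at least 1 Mb. They were mapped here in proliferating mouse myeloid cell lines by sequencing the DNA of unsorted, growing cultures, in which early replicating DNA is present in more copies than late replicating DNA. Each domain was chosen by its timing score: windows were averaged into 100-kb bins, the median of the 6 deposited score profiles was taken in each bin, and consecutive bins with a median below -0.5 were joined, a single missing bin being allowed within a run. Runs of 1 Mb or more were kept. On the 12 chromosomes used (1, 2, 5, 7, 8, 9, 10, 11, 13, 15, 16 and 18) this gave 159 domains among 268 late runs of any length. The domains covered 391 Mb and 3909 of 15259 bins (25.6%). A median below -0.5 was found in 29.4% of all bins, and 87.2% of these late bins lay inside a domain.

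The series held 6 samples, 3 labelled WT and 3 labelled Recql4-/- Klhdc3-/-. All were HoxB8 myeloid lines selected in GM-CSF, so that every sample shared the immortalising factor and the cytokine. Per the labels, the cultures divided every 15 to 18 hours and held over 25% of cells in S phase, and the libraries were sequenced as 150 bp paired reads with a target of 30-fold coverage. Recql4 is a helicase gene of the RecQ family with a role at replication origins, and the product of Klhdc3 selects substrates for a CUL2 ubiquitin ligase. The 6 value columns of the deposited tables carried no sample names, and nothing in the labels tied a column to a genotype. They were treated as unassigned profiles A to F in column order, no genotypes were compared, and each value is given per profile or as a median with its range. Separate mice or clones are not named for the 3 samples of either genotype. Library depth is unknown here, and counting intervals could not be computed. The score is the authors' smoothed value, scaled within each profile, and lower values stand for later replication.

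Replication of a mammalian genome starts at many sites, and neighbouring origins tend to fire together, so that timing forms domains on the scale of megabases. Late domains in mammalian cells are typically poor in genes, rich in A and T, and packed as heterochromatin that often contacts the nuclear lamina. They commonly hold large genes of the nervous system and clustered receptor families that blood cells do not use, and timing in many of them changes between cell types.

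The sequences upstream of gene starts show part of the range of base composition found in these domains. The 5 shown are the 250 bases immediately upstream of a RefSeq transcript start on GRCm38.p6, the same build as mm10, read 5′ to 3′ on the gene's own strand, with CpG dinucleotides in capitals. They were picked after the values were seen, to set a clustered receptor gene beside genes of the longest domains. Olfr1013, an olfactory receptor gene, has 0 CpG and a GC content of 22% (chr2:85769553-85769802, plus strand). Lrrc4c, the only gene with its midpoint in the latest domain, encodes a netrin-G ligand of synapses and has 4 CpG at 49.6% GC (chr2:96317919-96318168, plus strand). Cdh9, a cadherin gene of the longest domain, has 6 CpG at 48% GC (chr15:16728665-16728914, plus strand). Cep290, which encodes a protein of the ciliary transition zone, has 18 CpG at 60.8% GC (chr10:100487332-100487581, plus strand). Cdh8, a cadherin gene of the domain with the smallest spread among profiles, has 20 CpG at 64.4% GC (chr8:99416472-99416721, minus strand).
Olfr1013: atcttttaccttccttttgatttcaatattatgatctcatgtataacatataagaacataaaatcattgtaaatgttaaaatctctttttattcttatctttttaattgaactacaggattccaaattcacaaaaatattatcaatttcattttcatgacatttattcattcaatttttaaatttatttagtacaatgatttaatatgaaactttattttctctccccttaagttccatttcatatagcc
Lrrc4c: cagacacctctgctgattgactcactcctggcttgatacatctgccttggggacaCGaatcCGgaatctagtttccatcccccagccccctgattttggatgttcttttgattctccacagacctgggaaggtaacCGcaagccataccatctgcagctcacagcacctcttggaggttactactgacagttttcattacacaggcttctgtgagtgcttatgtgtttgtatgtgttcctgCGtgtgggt
Cdh9: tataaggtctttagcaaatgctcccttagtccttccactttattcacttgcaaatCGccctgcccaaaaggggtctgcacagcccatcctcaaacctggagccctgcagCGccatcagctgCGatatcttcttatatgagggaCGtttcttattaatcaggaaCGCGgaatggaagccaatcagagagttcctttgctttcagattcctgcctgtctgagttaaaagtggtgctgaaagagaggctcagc
Cep290: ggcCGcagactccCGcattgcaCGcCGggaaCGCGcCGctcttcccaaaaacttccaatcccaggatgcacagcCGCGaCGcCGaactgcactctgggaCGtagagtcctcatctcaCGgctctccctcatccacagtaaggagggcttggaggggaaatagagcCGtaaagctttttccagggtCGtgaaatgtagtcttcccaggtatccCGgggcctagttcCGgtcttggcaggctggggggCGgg
Cdh8: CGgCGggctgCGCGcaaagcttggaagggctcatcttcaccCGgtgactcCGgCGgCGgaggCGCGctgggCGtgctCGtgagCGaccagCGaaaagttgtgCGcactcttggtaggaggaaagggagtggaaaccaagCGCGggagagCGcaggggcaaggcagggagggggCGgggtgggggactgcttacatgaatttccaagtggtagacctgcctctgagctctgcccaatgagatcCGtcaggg

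The 159 domains were mostly short, with a median length of 2 Mb and a range of 1 to 11.4 Mb. At least 2 Mb was reached by 81 domains (287.4 Mb together), at least 3 Mb by 47 and at least 5 Mb by 14 (89.5 Mb). The 109 shorter late runs held 57.4 Mb. At the length limit, the 17 domains of exactly 1 Mb had mean scores with a median of -0.92 (range -1.31 to -0.56), and the 11 runs of 0.9 Mb that missed it had a median of -0.78 (range -1.10 to -0.74). The domains just inside the limit held Gulp1 and Col3a1, Isl1, Has2, Tafa5 and Tenm3 among others, and the runs just outside held Adgrb3, Scn9a and Zfp521. At the score limit, the outermost bins inside the domains had a median score of -0.60 (highest -0.50), and the bins directly beyond them had a median of -0.41.

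Longer domains were also later by mean score. The rule favours this, because the smoothed score descends from -0.5 at each border and a short domain has few bins far from one. How far it does so was not tested. Because the score chose the domains, their levels are a description. The mean score of a domain, taken over its bins, had a median of -1.14 and ranged from -1.87 to -0.55 over the 159 domains. It was below -1 in 107 domains, and 2694 domain bins (68.9%) lay below -1, against 18% of all bins. In domains of 1 to 2 Mb the median of the mean scores was -0.98, in those of 2 to 3 Mb it was -1.18, in those of 3 to 5 Mb -1.34, and in those of 5 Mb or more -1.43. Spearman's correlation between length and mean score was -0.73 over the 159 domains, which share the same 6 profiles and the same smoothing. No bin below -1 occurred in 18 domains.

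**Figure D1:**
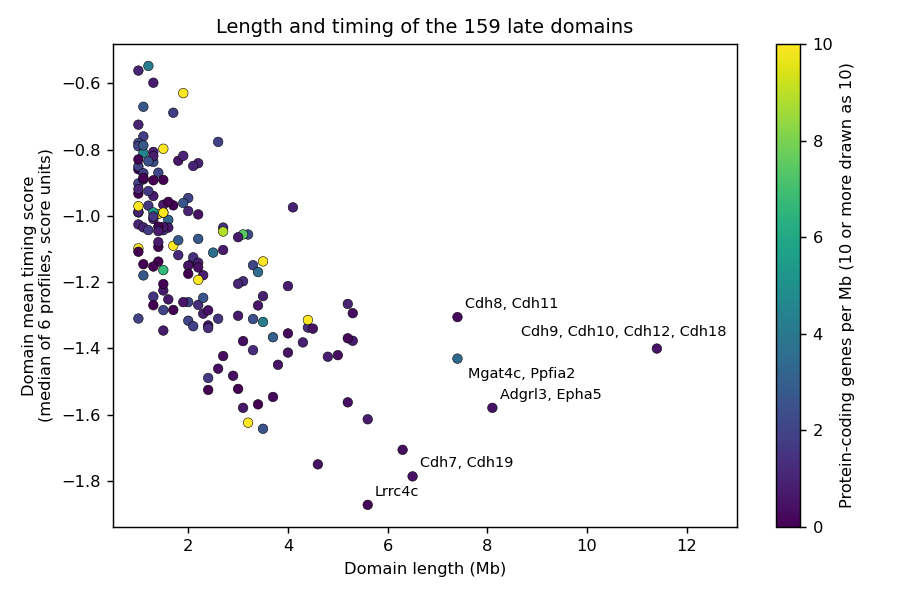
Each point is one of the 159 late domains, with its length in Mb on the x axis and its mean timing score (median of the 6 profiles, score units) on the y axis; colour gives protein-coding genes per Mb. The points fall from a wide band at 1 to 2 Mb to scores below -1.2 at 5 Mb or more, and the latest domain is that of Lrrc4c at -1.87.

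The timing curve descended gradually into the domains. Averaged over the 162 borders of domains of 2 Mb or more, the median score was 0.30 in the bin centred 650 kb before the border (SD 0.61 over borders) and -0.40 at 50 kb before it. Inside, it was -0.63 at 50 kb (SD 0.14), -1.26 at 450 kb and -1.45 at 950 kb. The score therefore fell by 0.63 between the first and the fifth bin within the border on average. Gene density changed on the outer side: it was 8.55 protein-coding genes per Mb at 650 kb before the border, 3.56 at 50 kb before it, 3.15 at 50 kb inside and 2.35 at 950 kb inside. Most of the fall in gene density thus lay outside the score limit. In 26 domains the curve rose again to an inner maximum with a prominence of at least 0.25 units. There were 31 such maxima, and the highest reached -0.51, just below the limit.

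**Figure D2:**
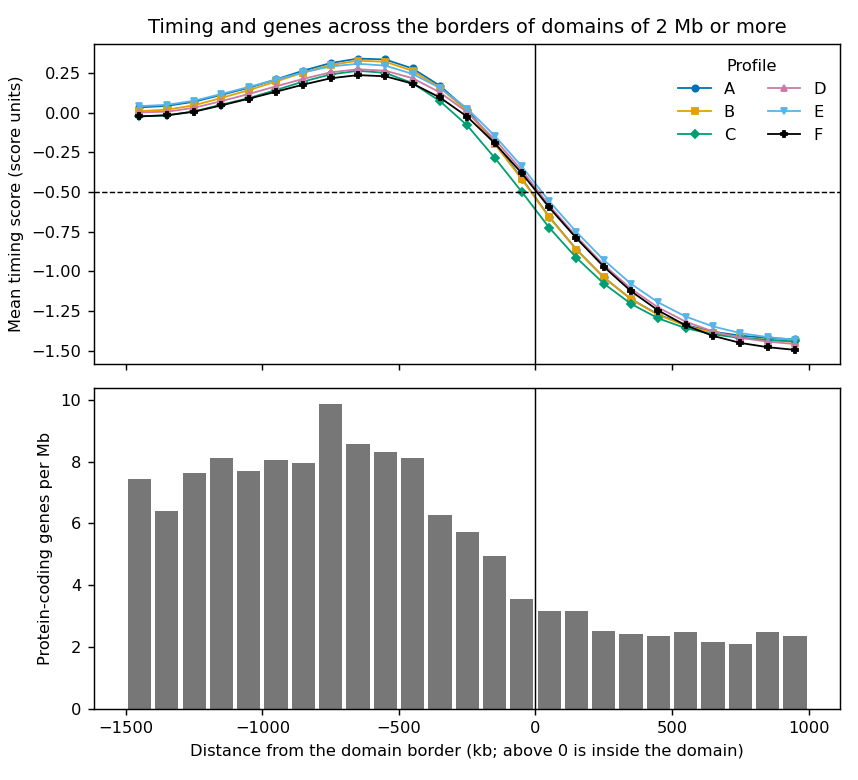
Upper panel: mean timing score of each profile (score units) by distance from the border in kb, over the 162 borders of domains of 2 Mb or more, with values above 0 kb inside the domain. Lower panel: protein-coding genes per Mb in the same bins, falling from 8.55 at 650 kb before the border to 3.15 at 50 kb inside it.

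Protein-coding genes were sparse in the domains. Of 13460 protein-coding genes with a valued bin, 1090 (8.1%) had their midpoint in a domain, although the domains held 25.6% of the bins. A body that overlapped a domain at all was found for 8.45% of genes. The domains held 2.79 genes per Mb, against 10.9 outside them (3.91-fold more) and 15.7 in bins with a score above 0.5. Shorter late runs held 4.41 genes per Mb. Early domains found by the mirrored rule numbered 203, with a median length of 1.7 Mb and 16.8 genes per Mb. Gene bodies covered 22.7% of the domains' bases and 49.1% of the other bins' bases.

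The 1090 genes were spread unevenly over the domains. The median domain held 2 genes, 103 domains held 1 to 4, and 21 domains (33.1 Mb) held none. Only 10 domains were touched by no gene body at all. The longest of the domains without a gene lay at chr8:50000001-53400000, with 3.4 Mb and a mean score of -1.57. At the other end, 12 domains with over 20 genes together held 688 of the 1090. Gene density did not fall steadily with length: it was 4.01 genes per Mb in domains of 1 to 2 Mb, 2.47 in those of 2 to 3 Mb, 3.51 in those of 3 to 5 Mb and 0.704 in those of 5 Mb or more. Spearman's correlation between length and gene density was -0.14 over the 159 domains.

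Gene classes differed in how far they were present in the domains. Pseudogenes had 1171 of 5198 entries (22.5%) inside the domains, close to the domains' share of bins, and snoRNA genes had 124 of 753 (16.5%). Long noncoding RNA genes had 752 of 8021 (9.38%), near the share of protein-coding genes, and miRNA genes had a lower one, with 44 of 751 (5.86%). The median length of a protein-coding gene was 2.66 kb inside and 18.9 kb outside. This order turned when olfactory and vomeronasal receptor genes were left out: the remaining 568 genes inside had a median length of 27.1 kb, against 20.2 kb outside. The density of these other genes inside was 1.45 per Mb.

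The longest domain, chr15:13800001-25200000 (11.4 Mb), held the type II cadherin genes Cdh9, Cdh10, Cdh12 and Cdh18, whose products join cells of the nervous system. Its mean score was -1.45 in profile A, -1.49 in B, -1.45 in C, -1.39 in D, -1.34 in E and -1.22 in F. Every profile was far below the limit, with F the highest. The curve had 2 inner maxima here, the higher at -0.58, so that the stretch came close to being split. The lowest bin, at chr15:23800001-23900000, had a score of -1.73. The second longest domain, chr5:77800001-85900000 (8.1 Mb), held Adgrl3 (latrophilin-3, an adhesion receptor), Tecrl and Epha5, a receptor tyrosine kinase for ephrins. Its profiles had -1.51, -1.56, -1.51, -1.64, -1.60 and -1.63 in the order A to F, a range of 0.13.

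A pair of domains measured 7.4 Mb each. The domain at chr8:96500001-103900000 contained the midpoints of only Cdh8 and Cdh11, also type II cadherin genes, and gene bodies covered 7.39% of it. Its means were -1.32, -1.31, -1.31, -1.30, -1.31 and -1.29 for A to F, which at 0.04 was the smallest range among the 159 domains. Within the domain the curve was less even, with 3 inner maxima. The profiles also differed more along single genes: from -1.55 (F) to -1.20 (C) in Cdh8, and from -0.87 (D) to -0.62 (F) in Cdh11. The domain at chr10:100000001-107400000 held 25 genes, the most of any domain over 5 Mb. They included Kitl, which encodes the ligand of the KIT receptor, Cep290, Mgat4c, which encodes a glycosyltransferase, Tmtc2, and Ppfia2, which encodes a liprin of the presynaptic scaffold. Its means were -1.38, -1.42, -1.44, -1.50, -1.38 and -1.48. Kitl lay next to the border, and its mean scores were -0.80, -0.70, -0.71, -0.63, -0.50 and -0.50, whereas Mgat4c, in the interior, had -1.59, -1.69, -1.66, -1.80, -1.77 and -1.81. This was the only domain with a missing bin.

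The next domains in length were also the latest. The domain at chr1:107900001-114400000 (6.5 Mb; Cdh7, Cdh19 and Dsel) had means of -1.74, -1.74, -1.75, -1.86, -1.80 and -1.86, and each of its bins was below the limit in each of the 6 profiles. The domain at chr1:98500001-104800000 (6.3 Mb), which held Cntnap5b, a contactin-associated protein gene, had -1.64, -1.65, -1.68, -1.85, -1.73 and -1.73. Lrrc4c lay in chr2:94900001-100500000 (5.6 Mb), the latest domain of all, with -1.80, -1.82, -1.81, -2.00, -1.92 and -1.92. Its right border met a missing bin, so its extent on that side is a lower bound. In all 3 of these domains D, E and F were each lower than A, B and C, and D or F gave the lowest mean. Of the same length was chr10:45500001-51100000 (5.6 Mb), with Hace1, Ascc3, Sim1 and Grik2, which encodes a kainate receptor subunit. Its means were -1.56, -1.61, -1.59, -1.64, -1.61 and -1.66.

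The last of the 10 longest domains measured 5.3 Mb each. The domain at chr5:46300001-51600000 held Slit2, which encodes an axon guidance ligand, Kcnip4, Adgra3 and Pacrgl, and had means of -1.43, -1.40, -1.36, -1.35, -1.32 and -1.39. The domain at chr18:25900001-31200000 held Pik3c3, which encodes the class III phosphatidylinositol 3-kinase, and Rit2, a neuronal small GTPase gene. Its means were -1.32, -1.31, -1.31, -1.26, -1.23 and -1.27, and its higher inner maximum of -0.51 was the highest among all the domains. The ranges of the 10 longest domains ran from 0.04 to 0.27, and the highest of their profile means was the -1.22 of profile F in the longest domain.

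**Figure D3:**
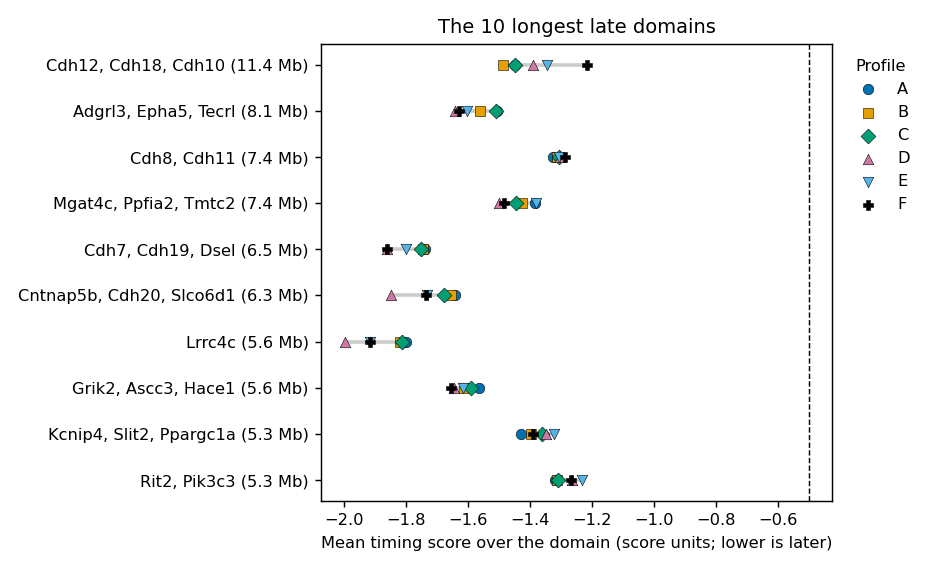
Mean timing score over the domain (x axis, score units) in each of the 6 profiles for the 10 longest late domains, ordered by length and named by the protein-coding genes that overlap them most; grey lines span the profiles and the dashed line marks -0.5. The widest of these spans, 0.27, is that of the 11.4 Mb cadherin domain, and the narrowest, 0.04, that of the Cdh8 and Cdh11 domain.

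The remaining 2 of the 5 latest domains were shorter. The domain at chr1:46300001-50900000 (4.6 Mb), with Slc39a10, a zinc importer gene, and the dynein heavy chain gene Dnah7c, had means of -1.76, -1.75, -1.78, -1.80, -1.65 and -1.71. The domain at chr7:59900001-63400000 (3.5 Mb) overlapped the imprinted interval whose human counterpart is lost or altered in Prader-Willi and Angelman syndromes. It held only part of that interval, with Snrpn, Ndn, Magel2, Mkrn3 and Peg12. Its means were -1.66, -1.67, -1.63, -1.65, -1.59 and -1.61, a range of 0.08. Ndn, a maternally silenced gene of the MAGE family, had -1.80, -1.80, -1.67, -1.78, -1.76 and -1.77. Chrna7, a nicotinic receptor gene nearer the right border, had -1.35, -1.30, -1.31, -1.09, -0.96 and -1.08. A depth profile averages both parental copies, so the timing of a single allele was not measured.

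The same domain carried all 13 Mir344 genes of the 12 chromosomes, which gave 25 of the 57 mature miRNA entries inside the domains. The entries are shown because they form one family in one domain; they had 11 distinct seeds, with the seed (bases 2 to 8) in capitals, from RefSeq. The seed of miR-344-5p was shared by 7 entries, that of miR-344d-3p by 4, and those of miR-344-3p and miR-344e-5p by 3 each. The bins of these genes had median scores between -1.54 (Mir344d-1, chr7:61683127-61683148 for its 3p arm) and -1.43 (Mir344, chr7:61877782-61877804 for its 3p arm). Outside this family, Mir206 and Mir133b, miRNAs of skeletal muscle, and Mir128-2, a brain miRNA, also lay in domains.
mmu-miR-344-5p: aGUCAGGCuccuggcuagauuccagg
mmu-miR-344b-5p: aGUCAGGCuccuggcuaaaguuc
mmu-miR-344d-3p: gAUAUAACcacugccagacuga
mmu-miR-344e-3p: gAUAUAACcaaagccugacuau
mmu-miR-344-3p: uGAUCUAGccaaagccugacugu
mmu-miR-344e-5p: cAGGCUUCuggcuauauucc

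The contents of the domains were described with 18 lists of genes defined by symbol or length. Receptors of smell formed the largest group. Of 892 olfactory receptor genes, 487 (54.6%) lay inside, in only 8 domains, against 8.1% of all genes; their median bin score was -0.71, and that of all protein-coding genes was 0.82. The array at chr2:85500001-89900000 held 198 of them, chr9:37700001-39900000 held 82, chr7:103200001-105100000 held 76 and chr7:107200001-108900000 held 42. The count of 487 fell to 411 without profile A, to 415 without E or without F, and to 342 on rescaled raw levels. Mean scores of the chr2 array were -1.21, -1.20, -1.33, -1.44, -1.44 and -1.53 in A to F, and those of the chr9 array were -1.25, -1.30, -1.27, -1.13, -1.16 and -1.12. Profiles A, B and C were thus each earlier than D, E and F in the chr2 array, and each later in the chr9 array. F was the latest profile in the former and the earliest in the latter. The chr7:103200001-105100000 domain was much less late, with -0.64, -0.56, -0.59, -0.59, -0.63 and -0.73, and also contained the 5 beta-globin genes (Hbb) and Trim genes. Of 144 vomeronasal receptor genes, which detect pheromones, 35 (24.3%) lay inside, in 4 domains. That count fell to 22 when profile A, B or C was left out of the median.

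The most gene-dense domain was not a receptor array. The 1-Mb domain at chr16:88400001-89400000 held 55 genes, among them 19 keratin-associated protein genes, which encode matrix proteins of hair, and Cldn8 and Cldn17. These 19 were the only members inside of 109 keratin and keratin-associated genes (17.4%). The domain's profile means lay between -1.03 and -0.88. As this domain sits exactly at the length limit, its inclusion depends on a single bin.

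Genes of synapses and cell adhesion were found in separate domains. For the families that follow, the share to set beside each count is the 8.1% of all genes. Of 15 GABA-A and glycine receptor subunit genes, 10 (66.7%) lay inside, in 3 clusters, so that these members are neighbours. On rescaled raw levels the count was 6, and with the mean over the profiles it was 7. The cluster at chr5:68400001-71700000 (Gabrg1, Gabra2 and Gabra4) had means of -1.29, -1.37, -1.39, -1.27, -1.26 and -1.32. Of 9 contactin, neurexin and neuroligin family genes 4 lay inside (Cntnap5a, Cntnap5b, Cntnap4 and Cntn5), and of 16 glutamate receptor genes 4 (Grm3, Grm5, Gria4 and Grik2).

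Adhesion, guidance and channel genes had shares from near the 8.1% of all genes upward. Tenm2 and Tenm3 of 3 teneurin genes lay inside, but the count was 1 without profile B. Of 18 semaphorin and plexin genes 4 lay inside (Sema3c, Sema3d, Sema3e and Sema6d), or 2 on rescaled raw levels, and of 59 potassium channel genes 8 (13.6%). Most members of both lists lay elsewhere and replicated early, with median bin scores of 0.68 and 0.83. Of 82 cadherin and protocadherin genes, 10 (12.2%) lay inside. Of these, 8 were among the 12 type II cadherin genes with a valued bin, while none of 57 clustered protocadherin genes was inside; this division was made after the counts were seen. Cdh2, encoding N-cadherin, and Pcdh15 were the others. Cdh20 lay at the edge of the Cntnap5b domain with a median score of -0.41, and Cdh22 replicated early at 0.59.

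Very long genes were frequent in the domains. Of 132 genes of 500 kb or more, 53 (40.2%) had their midpoint inside, in 49 domains, against 8.1% of all genes. A domain was overlapped by 66 (50%), against 8.45% of all genes. A longer body meets a domain more readily, and the part of this in the 50% was not tested. The longest was Lsamp, which encodes a neuronal adhesion protein, at 2197 kb, with scores along its body of -1.14, -1.10, -1.04, -1.06, -1.08 and -1.13 in A to F. Lrp1b, a lipoprotein receptor-related gene of 2058 kb, had -1.16, -1.16, -1.29, -1.11, -1.05 and -1.11. Dlg2, a postsynaptic scaffold gene of 1973 kb, had -0.78, -0.78, -0.79, -0.74, -0.70 and -0.86. Then followed Ctnna3, Robo2, Pcdh15, Rbfox1, Dpp10, Magi2 and Lrrc4c in order of length, from 1574 kb to 1314 kb. The latest of these 10 along its body was Lrrc4c, with -1.67, -1.67, -1.75, -1.90, -1.86 and -1.91.

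Other families had shares below the 8.1% of all genes. Zinc finger genes of the Zfp series had 10 of 268 members inside (3.73%), of which 5 lay together on chromosome 7, and cytochromes P450 had 1 of 47 (Cyp4v3). No member was inside for 5 lists: 56 ribosomal protein genes, 13 MCM and ORC genes, which encode the origin-licensing machinery, 17 myeloid genes, 35 serpins and 19 UDP glucuronosyltransferases. In lists this small the share of all genes would itself place few members inside, so that the 0 of the MCM and ORC, myeloid and UDP glucuronosyltransferase lists is near the background. The last list held 10 members inside at a threshold of -0.25. The myeloid genes, which mark the labelled cell type, had a median bin score of 1.20, and the ribosomal protein genes had 0.98. In all, 11 of the 18 lists had a share inside above that of all genes.

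**Figure D4:**
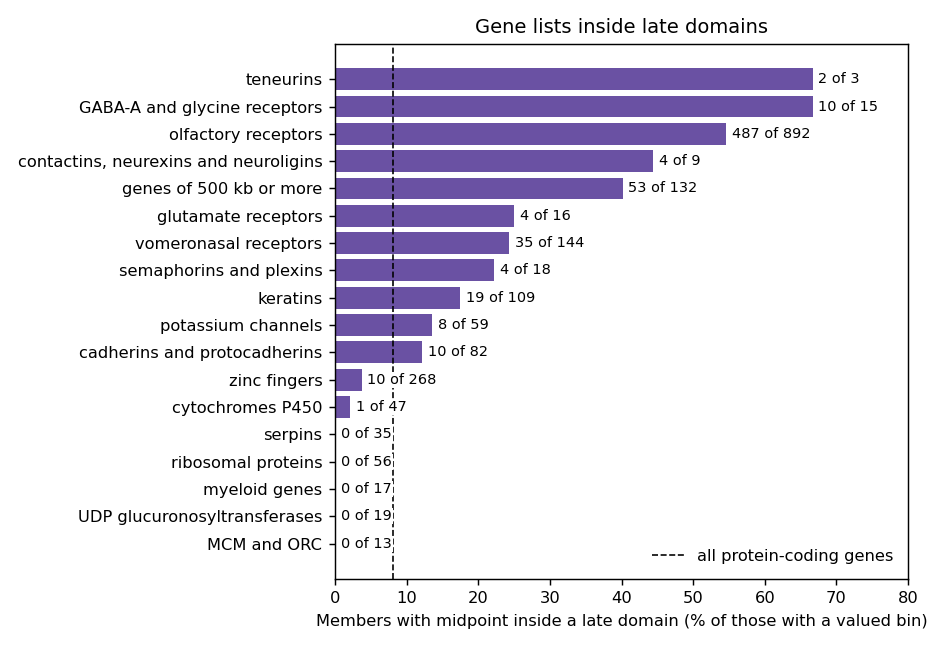
Share of each gene list with its midpoint inside a late domain (x axis, percent of members with a valued bin), with counts beside the bars; the dashed line is the 8.1% of all protein-coding genes. The bars run from 2 of 3 teneurin and 10 of 15 GABA-A and glycine receptor genes to 5 lists with none.

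Promoter sequence differed between starts inside and outside the domains. A start was classed by its own position, not by its gene's midpoint, so a gene with several starts could enter both sets. The window was the 300 bases from 250 upstream to 50 downstream of a RefSeq start, with entries matched by gene. The 983 starts inside, of 887 genes, had a median GC content of 40.3% and a median of 2 CpG. The 11753 starts outside had 58% and 16. At least 10 CpG were present at 19.7% of starts inside and 62.6% outside. The letters TATAAA on either strand, the core of the TATA box, occurred at 36.2% of starts inside and 10.5% outside, with 12.5% over all 12736 starts. Olfactory receptor starts alone, 418 of those inside, had a median of 33.3% GC and 1 CpG, and 52.2% held TATAAA. Low CpG was not particular to receptor starts inside. Among olfactory and vomeronasal receptor starts, 1 CpG was the most frequent count both inside (165 starts) and outside (151 starts). Without olfactory and vomeronasal receptors the 532 starts inside still had lower values than the 11308 outside: 47.8% against 58.7% GC, 6 against 16 CpG, and TATAAA at 23.3% against 9.72%. Starts of genes of 500 kb or more inside were closer to those outside, with 56% GC and 10 CpG over 69 starts. A match of letters describes the window and not a bound site. GC content moved with the share of TATAAA, and its part in that share was not tested.

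The profiles are compared here over domains that their own median selected, so low scores in each of them are favoured by the rule and are given as a description. By domain mean, 151 of the 159 domains were below -0.5 in each of the 6 profiles. Of the domain bins, 3505 (89.7%) were below -0.5 in every profile, which held for 25% of all bins on the 12 chromosomes. Every bin was below it in all profiles in 13 domains. Over the domains the mean score was -1.26 in A, -1.26 in B, -1.27 in C, -1.24 in D, -1.20 in E and -1.27 in F. The order among profiles varied from domain to domain: F and C were each the latest in 43 domains, A in 33, B in 19, D in 18 and E in 3. E was the earliest in 66 domains.

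The unsmoothed copy level placed the domains low in each profile as well. The mean raw level in the domains was 1.78, 1.80, 1.83, 1.79, 1.77 and 1.77 in A to F, and in bins with a score above 0.5 it was 2.14, 2.13, 2.11, 2.10, 2.11 and 2.12. Early bins thus carried 1.15 to 1.20 times the copy level of the domains. Profile C had the smallest ratio and A the largest. The score was derived from this level, so the agreement is not independent.

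Applied to each profile alone, the same rule gave 146 (D) to 166 (F) domains with 372.3 (E) to 404.8 (F) Mb. Of the 159 domains, 140 to 154 were covered over at least 80% of their length by a profile's own domains. Own domains elsewhere numbered 2 to 10 per profile. The overlap in length was 88.5% to 93.4% of the union, and since each profile entered the median, the comparison is not between independent maps.

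The spread among profiles was largest in short and less late domains. The range of the 6 domain means had a median of 0.22 and ran from 0.04 to 0.79. It was 0.26 at the median in domains of 1 to 2 Mb and 0.14 in those of 5 Mb or more. Spearman's correlation was -0.44 between length and range and 0.47 between mean score and range, over the 159 domains from the same 6 profiles. Length and mean score moved together with the range, and the part of each was not tested. The mean of a longer domain also averages over more bins, and the part of this in the range was not tested. Bin by bin, a range of 0.5 or more was seen in 371 domain bins (9.49%) and 982 other bins (8.65%), against 8.87% of all bins, so that the share in the domains was near the background. In early bins with a median above 0.5 the share was 5.01%.

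A range of the domain means of 0.5 or more was reached in 7 domains. In those given here with values per profile, A, B and C were each lower than D, E and F, while the order within each trio differed. This split did not hold in that direction for all 7. At chr15:56300001-57300000, with Has2, which encodes a hyaluronan synthase, the means were -1.07, -1.09, -1.13, -0.79, -0.65 and -0.48. On the same chromosome, chr15:53400001-54500000 (Samd12, Colec10 and Tnfrsf11b, which encodes osteoprotegerin) had -0.82, -0.91, -0.74, -0.66, -0.45 and -0.30. In both, F was the highest and fell short of the limit. The domain of Rnd3, which encodes a small GTPase that acts on the actin cytoskeleton, at chr2:50300001-51600000, had -0.73, -0.67, -0.68, -0.19, -0.10 and -0.55. Here D and E were well above the limit and F was below it. The domain at chr8:36900001-40000000 (3.1 Mb; Sgcz, Tusc3 and Msr1, the macrophage scavenger receptor gene) had -1.36, -1.37, -1.41, -0.78, -0.95 and -1.03, and stayed late in every profile. Such a range was also seen at chr1:157500001-158500000 (Brinp2 and Sec16b), with 0.52, and at chr2:46400001-48100000, which held no gene, with 0.59.

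A further 3 domains had a profile at or above -0.5 and none lower than -0.88. The domain at chr1:189100001-190300000, with the potassium channel gene Kcnk2, Ptpn14 and the homeobox gene Prox1, had -0.54, -0.48, -0.38, -0.56, -0.61 and -0.77 and was the least late of the 159. The Tafa5 domain at chr15:87000001-88000000 had -0.77, -0.60, -0.44, -0.46, -0.59 and -0.55. The Tenm3 domain at chr8:48100001-49100000 had -0.85, -0.86, -0.80, -0.88, -0.47 and -0.78, with E alone above the limit. With those of Has2, Samd12 and Rnd3, these are 6 of the 8 domains that were not late by mean in every profile.

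**Figure D5:**
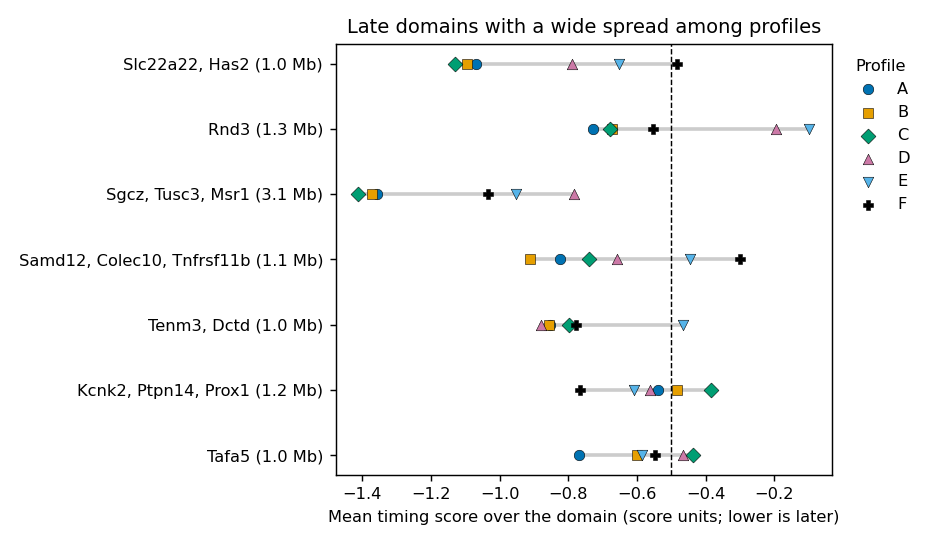
Mean timing score over the domain (x axis, score units) in each of the 6 profiles for 7 domains with a wide range or a profile mean at or above -0.5, ordered by range; the dashed line marks -0.5. The top line is the Has2 domain, from -1.13 in C to -0.48 in F.

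The domains were unequally distributed over the 12 chromosomes. They held 36.7% of the bins of chromosome 16 and 32.2% of chromosome 1, against 15.7% of chromosome 11 and 17.3% of chromosome 13. Chromosome 1 had the most domains, 22 with 61.4 Mb, and a median mean score of -1.28. Chromosome 11 had 9 with 18.6 Mb and 12 genes, with a median of -0.89. Windows were slightly wider in the domains, with a mean of 10687 bp against 10400 bp in other bins, and 10 of the 318 borders met a missing bin.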

How the data were processed

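DNA of 6 cultures was sequenced. The authors deposited 2 tables without headers over 237602 windows: a normalised copy level (raw level, unit not stated), and a smoothed timing score, deposited scaled within each profile. TIGER, which reads timing from depth, is named in the series title. The build was mm10 and Picard 2.23.9 was used, per the submitters' processing notes. How reads were aligned, corrected for GC and smoothed is not given in the sources used here. With no column names, the planned genotype comparisons were not made.

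Bins of 100 kb needed 3 or more windows valued in all 6 profiles. The other chromosomes were not used here. Genes, miRNAs and promoters came from RefSeq tables of GRCm38.p6, and a gene was inside when its midpoint was. A promoter was inside when its transcript start was. Analysis used Python 3.11.15, pandas 2.3.3, numpy 2.4.6 and scipy 1.17.1, and the run finder was tested on simulated data. The domains and lists were chosen with earlier results of these data known.

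Domains given with values per profile were the 10 longest, the 5 latest, the 5 with the widest range, the 5 with the most genes per Mb, those at the length limit and those with a profile at or above -0.5. Genes named were up to 3 with the most overlap in each, the list members, and the 10 longest inside. Other genes and domains were named after their values were seen. Alternatives covered thresholds, bin size, missing bins, averaging, rescaling, gene overlap and leaving out each profile. Some genes and domains that meet these rules, the domain with the widest range included, are not reported here.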

Additional observations from a re-analysis of the deposited data

How the results depend on the processing

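At a threshold of -1, 97 domains remained by count, with 232.4 Mb, a median length of 1.9 Mb and 2.01 genes per Mb. At -0.25 the domains covered 495.1 Mb, with a median of 2.1 Mb and 2.98 genes per Mb. On raw levels rescaled like the scores they covered 322.6 Mb, with a median of 1.9 Mb and 2.36 genes per Mb, and with scores rescaled over the 12 chromosomes 411.6 Mb. Leaving out 1 profile gave 157 to 159 domains, 386.9 to 394 Mb, medians of 1.9 to 2 Mb, 2.51 to 2.78 genes per Mb and a median range of 0.19 to 0.21. In the same domain, a range over fewer profiles cannot exceed that over all 6, so a lower median range was favoured in advance. Of 84 values for these results and the number of lists above the share of all genes, 69 shifted less than 1 SD of the profiles or, for the numbers of domains and of lists, less than 1.5 times. The number of domains was 190 at -0.25 and 138 on rescaled raw levels. Of 288 counts of list members, added after the data were seen, 265 stayed within 1.5 times. At -1 the lists fell to 277 olfactory receptor, 19 vomeronasal receptor, 2 GABA-A and glycine receptor, 2 glutamate receptor, 5 potassium channel and 6 zinc finger genes and 28 genes of 500 kb or more, and the keratin, teneurin, semaphorin and P450 lists to 0. At -0.25 there were 10 UDP glucuronosyltransferase, 16 zinc finger and 1 MCM and ORC genes. Vomeronasal receptors also numbered 21 with 50-kb bins or with at least 6 windows per bin. Myeloid, ribosomal protein and serpin genes stayed at 0 under all 16 alternatives. The cause of these shifts was not tested. No paired analysis was possible because no replicate number is attached to any column. Read depth was not given, so what it limits could not be computed, and smoothing makes neighbouring bins dependent.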

Other observations

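Among the domains with many genes, a reproductive family was also present. The domain at chr13:25500001-28200000 (2.7 Mb) held 24 genes, mostly of the prolactin family, which encodes pituitary and placental hormones. Its means were -1.10, -1.11, -1.28, -0.95, -0.92 and -1.01 in profiles A to F. The domain at chr7:84800001-88000000 (3.2 Mb) combined 17 olfactory and 15 vomeronasal receptor genes with Grm5, Nox4 and Tyr, the tyrosinase gene of pigment synthesis. Among the 12 domains with over 20 genes it had the lowest mean score and the smallest range, with -1.59, -1.64, -1.60, -1.63, -1.64 and -1.64, a range of 0.05.

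The profile values of some varying domains were separated by a gap, and no label allows a reading of it. In the Sgcz domain on chromosome 8 the ordered means showed their widest gap, 0.32, between -1.36 (A) and -1.03 (F), and in the Has2 domain on chromosome 15 it was 0.28, between -1.07 (A) and -0.79 (D). In the Rnd3 domain on chromosome 2 the gap of 0.36 lay between -0.55 (F) and -0.19 (D). In the Tenm3 domain a single profile stood apart, E at -0.47, by 0.31.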
